A study of Mus musculus with 13 samples.

Results

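Periostin (Postn), SPARC (Sparc), thrombospondins 1 and 2 (Thbs1, Thbs2), the CCN family proteins 1 and 2 (Ccn1, Ccn2), tenascin C (Tnc), fibronectin (Fn1), transforming growth factor beta 1 (Tgfb1) and elastin (Eln) are matrix-associated proteins linked to tissue remodelling and fibrosis. These 10 genes were taken by symbol from a table of 34013 genes, without regard to their counts. All 10 were found in the table and all 10 were among the 17270 genes with enough counts for the test. They were followed in mouse perivascular adipose tissue, the fat around blood vessels, in 13 RNA-seq libraries from mice that had received splenocytes, the cells of a donor spleen.

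Matricellular proteins sit in the extracellular matrix without being its main scaffold, and signal to cells through integrins, syndecans and other receptors. Many of them are made by activated fibroblasts and smooth muscle cells during wound repair. Transforming growth factor beta is secreted in a latent form that is stored in the matrix on latent TGF-beta binding proteins, and thrombospondin 1 is among the proteins that can release it. Once active it signals through SMAD proteins and raises matrix genes such as fibronectin and Ccn2, while Ccn1 and Ccn2 are also known targets of YAP and TAZ, the transcriptional arm of the Hippo pathway.

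The study has 4 groups of recipients on a C57BL/6 background. WTS-R mice received splenocytes from wild-type (WT) donors (3 libraries), and NS-R mice received them from Nlrp3 KO donors, which lack the inflammasome sensor NLRP3 (3 libraries). TS-R mice received cells from T2DM donors, that is, donors with type 2 diabetes (4 libraries), and NTS-R mice received cells from Nlrp3 KO T2DM donors (3 libraries). The genotype label reads WT for WTS-R and TS-R and Nlrp3 KO for NS-R and NTS-R, and does not say whether it is that of the donor or of the recipient. The sources used here give no age, sex, collection time or way of inducing diabetes. They also do not state that each library is a separate animal, and the p-values then reflect only how far these libraries spread, which may in part be technical.

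Total counts per library ran from 14216706 to 37011122, and the lowest count of any of the 10 genes in any library was 105, for Thbs2. Levels are given as CPM, read counts scaled to a common library size, with sizes adjusted by TMM, edgeR's correction for library composition. Nlrp3 itself was at 0.251 to 2.93 CPM over the 13 libraries, and NS-R stood above WTS-R by 0.90 on the log2 scale (SE 0.714, edgeR adjusted p = 0.9997), so the counts of Nlrp3 in this tissue do not separate the genotype labels. Markers of other tissues were high in some libraries. The summed level of 7 T and B cell markers was 22.6, 370.2, 1534 and 138 CPM in TS-R replicates 1 to 4, against 10.3 to 13.01 CPM in WTS-R, 13.5 to 24.6 CPM in NS-R and 9.60 to 37.1 CPM in NTS-R. The summed level of 7 lymph node stroma markers was 435, 1871 and 91.9 CPM in TS-R replicates 2, 3 and 4 and 10.6 to 48.8 CPM in the other 10 libraries, TS-R replicate 1 among them at 19.7 CPM. All 7 of the first list and all 7 of the second had an unadjusted p under 0.05 and were higher in TS-R than in WTS-R (15.2% of all genes), with medians of 5.14 and 6.24 on the log2 scale. TS-R replicate 3 also had the lowest sums of 10 fibroblast markers (868 CPM) and 7 adipocyte markers (1699.6 CPM). The summed level of 6 airway epithelium markers was 5784 and 11580 CPM in NS-R replicates 1 and 2 and under 1 CPM in the other 11 libraries, and 7 skeletal muscle markers summed to 10283 CPM in TS-R replicate 1. In a bulk library, fewer cells of a type and less RNA per cell cannot be told apart.

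Promoter windows from RefSeq (mouse build GRCm38.p6) were matched by symbol for 6 of the 10 genes, Postn and Tnc with 2 start sites each, and for 3 of them the 250 bases before the start are shown, 5′ to 3′ on the gene's own strand. Ccn1 is shown because it had the widest range of levels over the libraries, Postn because it had the smallest p-value in TS-R against WTS-R, and Tgfb1 as the growth factor of the set. Capitals mark matches, on either strand, to TATAAA (the TATA box), to CATTCC (the core recognised by TEAD, the DNA-binding partner of YAP), to CAGAC (a SMAD element), to TGANTCA (an AP-1 element), to GGGCGG (an Sp1 element) and to the CArG element of serum response factor.
Ccn1, chr3:145649986-145650235, minus strand: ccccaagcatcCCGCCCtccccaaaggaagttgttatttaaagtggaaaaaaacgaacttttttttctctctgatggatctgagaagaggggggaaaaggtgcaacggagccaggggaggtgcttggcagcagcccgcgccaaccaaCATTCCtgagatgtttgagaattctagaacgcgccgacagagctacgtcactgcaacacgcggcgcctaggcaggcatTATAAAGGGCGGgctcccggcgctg
Postn, second start, chr3:54360857-54361106, plus strand: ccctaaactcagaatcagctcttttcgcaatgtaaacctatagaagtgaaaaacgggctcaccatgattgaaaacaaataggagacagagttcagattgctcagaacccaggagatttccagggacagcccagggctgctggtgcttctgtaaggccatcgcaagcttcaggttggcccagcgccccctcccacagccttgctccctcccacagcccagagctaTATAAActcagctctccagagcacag
Tgfb1, chr7:25686752-25687001, plus strand: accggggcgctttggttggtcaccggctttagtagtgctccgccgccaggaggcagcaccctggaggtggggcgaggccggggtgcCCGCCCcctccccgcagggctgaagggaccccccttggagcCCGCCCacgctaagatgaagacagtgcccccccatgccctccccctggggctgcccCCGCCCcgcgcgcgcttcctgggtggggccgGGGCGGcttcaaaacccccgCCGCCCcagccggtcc
The Ccn1 sequence held TATAAA at positions -25 to -20 from the start, directly followed by a GGGCGG, a second Sp1 match on the other strand, and CATTCC at -103 to -98. The Postn sequence of the second start held TATAAA at -26 to -21 and none of the other motifs. The first Postn start, not shown, had CAGAC at -191 to -187. The Tgfb1 sequence held 5 Sp1 matches, without overlap between them, and no TATAAA. The full windows run from 250 bases before to 50 after a start, and so are longer than the sequences shown. Of 32851 such windows, 13.6% held TATAAA, 14.7% CATTCC, 49.6% CAGAC, 7.81% TGANTCA, 35.7% GGGCGG and 1.63% a CArG element. Within the set, TATAAA was found in windows of Postn, Thbs2, Ccn1 and Tnc, and CAGAC in windows of Postn, Sparc, Thbs2, Ccn1 and Tnc. CATTCC was found in 1 of the 8 windows of the set, that of Ccn1, and 0 of the 8 held TGANTCA or a CArG element. These are matches of letters and not sites shown to be bound.

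Per kilobase of exon, the scale on which genes can be compared, Sparc was the most abundant of the 10, with a mean over the 13 libraries of 331 CPM per kb. Ccn1 followed at 59.2, Postn at 18.5, Fn1 at 17.6, Ccn2 at 10.3, Eln at 9.61, Thbs1 at 7.74, Tgfb1 at 5.97, Tnc at 3.38 and Thbs2 at 1.44 CPM per kb. The ratio of the highest to the lowest library ranged from 2.27 for Thbs2 to 7.72 for Ccn1. TS-R replicates 1 and 3 were each the lowest library for 3 of the 10 genes.

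**Figure D1:**
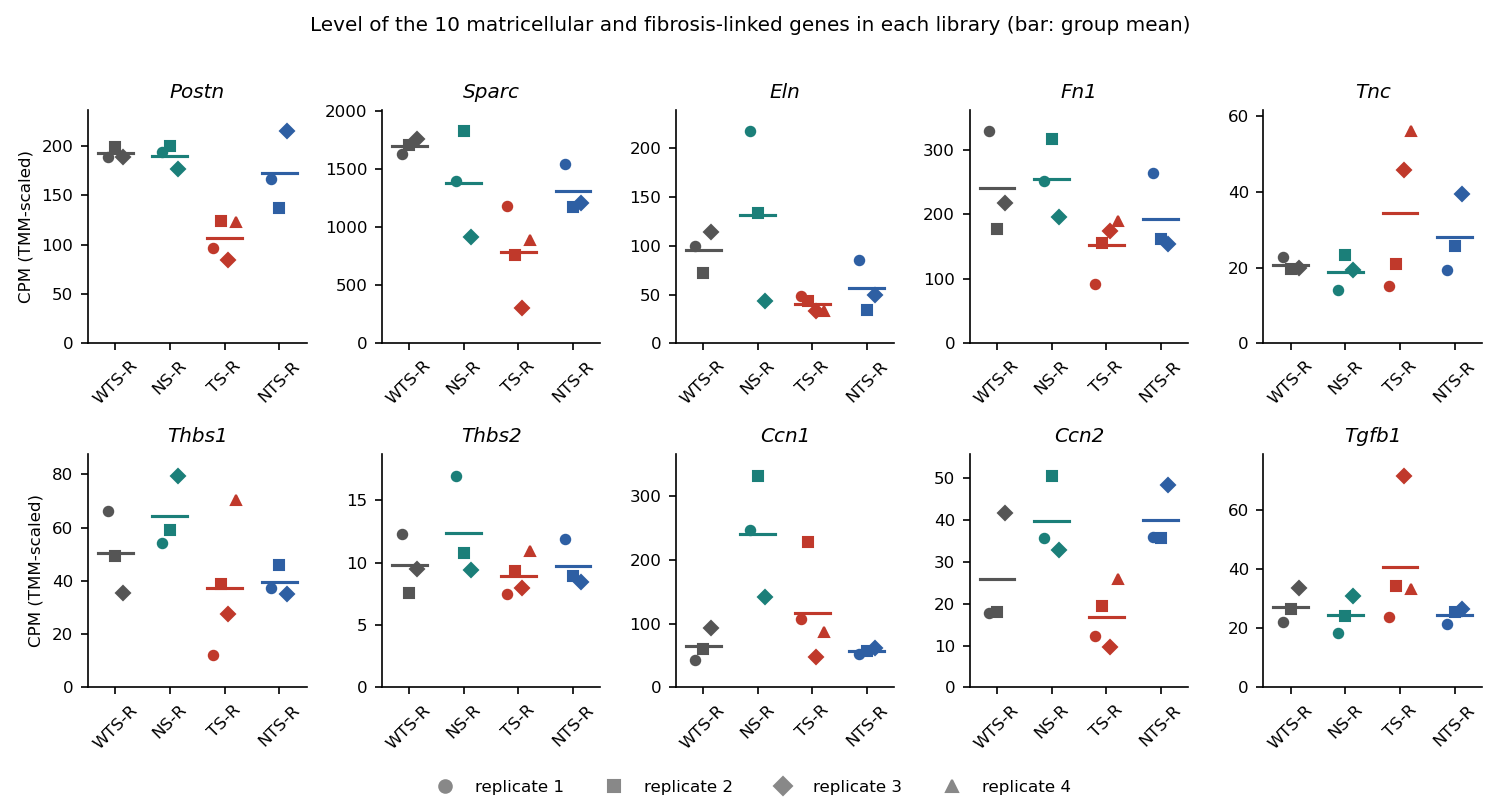
Level of each of the 10 genes in the 13 libraries, in CPM on a linear axis that starts at 0, with 1 point per library, a symbol for the replicate number and a bar at the group mean. The 4 TS-R libraries of Postn, Sparc and Eln all lie below the 3 WTS-R libraries, and the 3 NS-R libraries of Ccn1 all lie above those of WTS-R.

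Across the 5 comparisons of groups and the test of whether the effect of donor diabetes depended on Nlrp3, no gene of the whole table passed an adjusted p of 0.05 in edgeR's quasi-likelihood test (0% of 17270 genes in each of the 6), so 0 of the 10 genes were called. In TS-R against WTS-R, 3 of the 10 had an unadjusted p under 0.05, all lower in TS-R, where 7.07% of all genes did so in that direction. The same 3 had groups that did not overlap, where 8.17% of all genes were lower without overlap. In NTS-R against TS-R, 2 of the 10 had an unadjusted p under 0.05 and were higher in NTS-R (5.59% of all genes), 2 were lower (14.1% of all genes), and 2 were higher without overlap (5.72% of all genes). The median log2 fold change of the 10 was -0.53 in TS-R against WTS-R, with 7 of 10 negative, beside 47.6% negative and a median of 0.03 over all genes. Between NTS-R and TS-R it was 0.23, with 7 of 10 positive, beside 47.4% positive and a median of -0.03 over all genes. Both comparisons use the 4 TS-R libraries, so their directions are not independent.

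Other tools called some of the set. In TS-R against WTS-R, DESeq2 on the same counts called Postn and Sparc lower (11.0% of all genes called), and limma with voom quality weights called Postn, Sparc and Eln lower and Ccn1 higher (22.1% of all genes). Between NTS-R and TS-R, DESeq2 called Postn and Ccn2 higher (8.27% of all genes), and limma called Sparc and Ccn2 higher and Ccn1 lower (9.48% of all genes). Calls from edgeR appeared when single libraries were left out. Without TS-R replicate 1, Postn and Sparc were called in TS-R against WTS-R (log2 fold changes of -0.78 and -1.37, adjusted p = 0.0351 and 0.0427), where 11.2% of all genes were called. Without TS-R replicate 4, Postn alone of the 10 was called (-0.91, adjusted p = 0.0359; 7.24% of all genes).

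**Figure D2:**
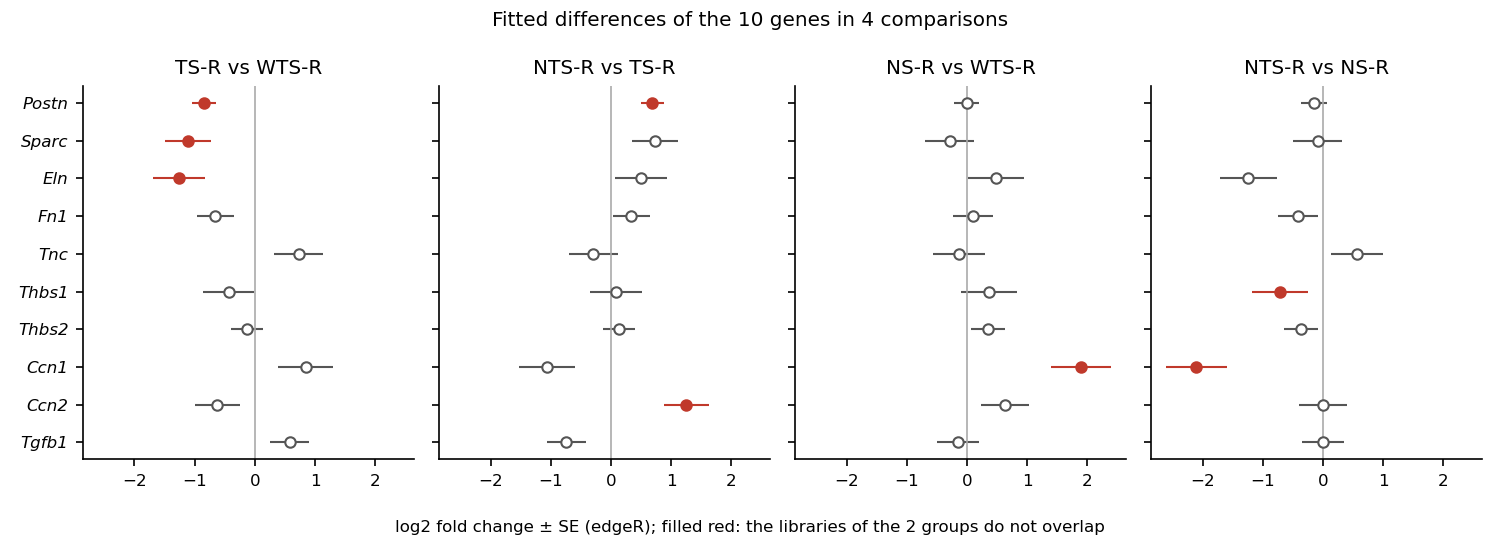
Log2 fold change of each of the 10 genes with its standard error (horizontal line) from edgeR in 4 comparisons, with filled red points where the libraries of both groups do not overlap. Postn, Sparc and Eln are filled in TS-R against WTS-R, Postn and Ccn2 in NTS-R against TS-R, and Ccn1 lies at 1.89 and -2.10 in the comparisons with NS-R.

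Periostin is a collagen-binding matricellular protein of fibroblasts. Postn was at 189, 199 and 188 CPM in the WTS-R libraries and at 193, 200.1 and 176 CPM in the NS-R libraries. It was at 96.4, 124, 84.5 and 123 CPM in the TS-R libraries and at 166, 137 and 214 CPM in the NTS-R libraries. Every TS-R library was below every library of the other 3 groups, and the group means were 192 ± 6.06 (SD, n = 3) in WTS-R, 189.9 ± 12.3 (SD, n = 3) in NS-R, 107 ± 19.7 (SD, n = 4) in TS-R and 172 ± 39.2 (SD, n = 3) in NTS-R. In TS-R Postn was 0.557 times its WTS-R level, a log2 fold change of -0.84 (SE 0.195, unadjusted p = 0.000885, edgeR adjusted p = 0.0624). That adjusted p is also the lowest that any gene reached in this comparison, in which Postn had rank 228 of 17270 by p. Postn was higher in NTS-R than in TS-R by 0.69 on the log2 scale (SE 0.195, edgeR adjusted p = 0.109). NTS-R and WTS-R overlapped, with a difference of -0.16 and a 95% interval from -0.612 to 0.298.

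SPARC, also called osteonectin, binds collagen and is abundant in fat and in bone. Sparc measured 1627, 1707 and 1759.7 CPM in WTS-R, against 1399.5, 1822 and 911 CPM in NS-R. In TS-R, Sparc measured 1182, 759, 301 and 891 CPM, and in NTS-R 1543, 1169 and 1209 CPM. The TS-R libraries were all below WTS-R, with TS-R replicate 3 lowest of the 13, and the log2 fold change was -1.12 (SE 0.382, unadjusted p = 0.0124, edgeR adjusted p = 0.115). Without TS-R replicate 3 it was -0.86 (edgeR adjusted p = 0.121). NTS-R and TS-R overlapped through TS-R replicate 1, with a difference of 0.74 (95% interval from -0.0896 to 1.57). The 3 NTS-R libraries were also all below the 3 WTS-R libraries (7.46% of all genes were lower without overlap), by 0.38 with an SE of 0.412.

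Elastin gives arteries and other tissues their recoil. Eln measured 100.4, 71.9 and 114 CPM in WTS-R, against 217, 134 and 44.0 CPM in NS-R. In TS-R, Eln measured 49.1, 43.9, 33.6 and 33.2 CPM, and in NTS-R 85.5, 34.3 and 49.5 CPM. The 4 TS-R libraries lay close together and all below WTS-R, and the log2 fold change of -1.26 (SE 0.435, unadjusted p = 0.0131, edgeR adjusted p = 0.117) was the most negative of the 10 genes in that comparison. NS-R spread about its own mean of 132 CPM by an SD of 86.8. In NTS-R against NS-R, Eln was lower by a log2 fold change of -1.24 (SE 0.473, unadjusted p = 0.0218, edgeR adjusted p = 0.612), with overlap between the groups. This value was -0.68 without NS-R replicate 1, the highest Eln library. It was -1.65 without NS-R replicate 3, where it was called (edgeR adjusted p = 0.0311, 3.1% of all genes called). That fit kept only NS-R replicates 1 and 2, whose airway markers summed to 5784 and 11580 CPM. NS-R replicate 3, the lowest of its group in Eln, had airway markers at 0.272 CPM in sum. The part of airway tissue RNA in the Eln difference was not tested.

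Eln moved with the state of the circadian clock, measured per library as the level of clock genes of the Dbp arm less that of the Arntl arm on a log2 scale. This clock level was -0.37 to 1.15 in WTS-R, 0.83 to 3.57 in NS-R, 2.22 to 4.03 in TS-R and 1.38 to 4.77 in NTS-R. Over the 13 libraries, Eln had a Pearson r of -0.773 and a Spearman rho of -0.742 with it, and r was -0.726 without the 2 libraries farthest from the median clock level. Sparc and Fn1 had rho of -0.709 and -0.681 with the clock level, and r of -0.452 and -0.609. Without the same 2 libraries, r was -0.444 for Sparc and -0.644 for Fn1. With the mean log2 level of the 10 fibroblast markers, Eln had r of 0.717 and rho of 0.824, and r of 0.874 without WTS-R replicate 3 and TS-R replicate 3. With the clock level as a covariate, the Eln difference between TS-R and WTS-R was 0.02 on the log2 scale, while Postn kept -0.86 and Sparc -0.99 (edgeR adjusted p = 0.165 and 0.424). Under the same covariate, Fn1 went from -0.65 to -0.22 and Thbs2 from -0.13 to 0.16. Collection time is not in the labels, WTS-R and TS-R have no overlap in this level, and its part in the Eln difference was not tested.

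Fibronectin is a large adhesive glycoprotein that is assembled into fibrils by cells. Fn1 measured 328, 177 and 217 CPM in WTS-R, against 251, 317 and 196 CPM in NS-R. In TS-R, Fn1 measured 92.0, 156, 174 and 189.8 CPM, and in NTS-R 264, 162 and 154 CPM. WTS-R and TS-R overlapped, and the log2 fold change was -0.65 (SE 0.308, edgeR adjusted p = 0.235). Without TS-R replicate 1, the lowest library, it was -0.46.

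Tenascin C is a large matricellular protein that is scarce in most healthy adult tissues and appears at sites of injury. Tnc measured 22.8, 19.7 and 20.05 CPM in WTS-R, against 14.003, 23.3 and 19.5 CPM in NS-R. In TS-R, Tnc measured 15.0, 20.9, 45.8 and 56.0 CPM, and in NTS-R 19.3, 25.8 and 39.6 CPM. The higher mean of TS-R, 34.4 ± 19.6 (SD, n = 4) against 20.8 ± 1.72 (SD, n = 3) in WTS-R, came from replicates 3 and 4, while replicate 1 was below all of WTS-R. The log2 fold change was 0.73 (SE 0.409, edgeR adjusted p = 0.314), and it was 0.40 without TS-R replicate 4 and 0.98 without TS-R replicate 1.

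Thrombospondins are secreted multimers that bind CD36 and CD47, and thrombospondin 1 can activate latent TGF-beta. Thbs1 measured 66.1, 49.4 and 35.4 CPM in WTS-R, against 54.0, 59.2 and 79.5 CPM in NS-R. In TS-R, Thbs1 measured 12.3, 38.9, 27.6 and 70.3 CPM, and in NTS-R 37.2, 46.0 and 35.1 CPM. TS-R held both the lowest library and the second highest, and spanned WTS-R, and its log2 fold change was -0.44 (SE 0.428, edgeR adjusted p = 0.579). It was -0.13 without TS-R replicate 1 and -0.93 without TS-R replicate 4. The 3 NTS-R libraries were all below the 3 NS-R libraries (7.9% of all genes were lower without overlap), by a log2 fold change of -0.71 (SE 0.462, edgeR adjusted p = 0.946). Thbs2 had the narrowest range, from 7.49 CPM in TS-R replicate 1 to 17.0 CPM in NS-R replicate 1. Its 4 group means ran from 8.94 ± 1.53 (SD, n = 4) in TS-R to 12.4 ± 4.04 (SD, n = 3) in NS-R, and all 4 groups overlapped. For Thbs2 in TS-R against WTS-R the 95% interval of the log2 fold change was -0.704 to 0.441.

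Ccn1, also known as Cyr61, is a secreted integrin ligand whose gene responds to growth factors within minutes to hours. Ccn1 measured 42.9, 59.6 and 93.2 CPM in WTS-R, against 246.2, 331 and 142 CPM in NS-R. In TS-R, Ccn1 measured 107, 227, 47.8 and 86.8 CPM, and in NTS-R 51.7, 56.3 and 61.1 CPM. The NS-R libraries were all above the WTS-R and NTS-R libraries, TS-R spread over most of the range in between, and NTS-R held the tightest group, 56.4 ± 4.70 (SD, n = 3). In NS-R against WTS-R, Ccn1 was the 1 gene of the 10 with an unadjusted p under 0.05 (5.31% of all genes) and the 1 that was higher without overlap (7.53% of all genes). Its log2 fold change was 1.89 (SE 0.498, unadjusted p = 0.00236, edgeR adjusted p = 0.311).

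In NTS-R against NS-R, Ccn1 and Eln were the 2 genes of the 10 with an unadjusted p under 0.05 (6.36% of all genes), and Ccn1 was lower by a log2 fold change of -2.10 (SE 0.502, edgeR adjusted p = 0.208). Ccn1 was also lower in NTS-R than in TS-R, by a log2 fold change of -1.06 (SE 0.464, edgeR adjusted p = 0.234), with overlap through TS-R replicate 3. With the highest TS-R library, replicate 2 at 227 CPM, left out, that value was -0.52, and the value for TS-R against WTS-R went from 0.84 to 0.32. The difference between the effect of donor diabetes with Nlrp3 KO donors and with wild-type donors was -2.95 for Ccn1, one of 2 genes of the set, with Postn at 0.69, that had an unadjusted p under 0.05 in this test (18.3% of all genes; for Ccn1, SE 0.681, unadjusted p = 0.000896, edgeR adjusted p = 0.125). Without NS-R replicate 3, edgeR called Ccn1 higher in NS-R than in WTS-R (log2 fold change of 2.15, adjusted p = 0.0499; 2.77% of all genes called) and lower in NTS-R than in NS-R (-2.36, adjusted p = 0.0283; 3.1% of all genes). It also called the difference of effects (-3.20, adjusted p = 0.0421; 1.64% of all genes). NS-R replicates 1 and 2, the highest Ccn1 libraries of that group, are those with airway markers. The fit without NS-R replicate 3 thus kept only the airway-marker libraries of that group. NS-R replicate 3, with airway markers at 0.272 CPM in sum, was at 142 CPM, above the 3 WTS-R and the 3 NTS-R libraries. The part of airway tissue RNA in the Ccn1 differences was not tested.

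Smooth muscle markers moved with Ccn1 in the comparisons with NS-R, but not in NTS-R against TS-R. The summed level of 7 such markers was 454 to 904 CPM in NS-R, 237 to 497 CPM in WTS-R, 152 to 525 CPM in TS-R and 333 to 516 CPM in NTS-R, with 0 of the 7 at 0 in any library. In NS-R against WTS-R, 4 of the 7 were higher at an unadjusted p under 0.05 (4.92% of all genes), 4 were higher without overlap (7.53% of all genes), 7 of 7 were positive and the median was 1.17. Acta2, the smooth muscle actin that also marks myofibroblasts, was among the 4. In NTS-R against NS-R, 4 of the 7 were lower at an unadjusted p under 0.05 (5.11% of all genes), with a median of -0.96. In NTS-R against TS-R, where Ccn1 was lower, 6 of the 7 were positive (47.4% of all genes), with a median of 0.27. There, 2 were higher (5.59% of all genes) and 0 lower (14.1% of all genes) at an unadjusted p under 0.05, and 2 were higher without overlap (5.72% of all genes). Over the 13 libraries, Ccn1 had r of 0.674 and rho of 0.72 with the mean log2 level of these markers, and r of 0.55 without NS-R replicate 1 and TS-R replicate 3. For Ccn2 these values were 0.676, 0.643 and 0.641. With the mean log2 level of 7 endothelium markers, Ccn1 had r of 0.486 and rho of 0.72. The part of smooth muscle RNA in the Ccn1 differences was not tested.

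Ccn1 varied with the immediate early genes, the transcription factors such as Fos, Jun and Egr1 that cells switch on within minutes of a stimulus. The summed level of 18 such genes was 987 to 1485 CPM in WTS-R, 1709 to 3738 CPM in NS-R, 831 to 1769 CPM in TS-R and 656 to 790.4 CPM in NTS-R. Over the 13 libraries, Ccn1 had a Pearson r of 0.936 and a Spearman rho of 0.885 with the mean log2 level of these genes, and r was 0.873 without NS-R replicates 1 and 2, the libraries farthest from the median. For comparison, r with the same level was 0.241 for Ccn2, and r of the other 8 genes did not exceed that of Eln, 0.42. The part of this wider immediate early pattern in the Ccn1 differences was not tested.

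Ccn2, also known as CTGF, is the family member most often used as a marker of fibrosis and a classical target of TGF-beta. Ccn2 measured 17.8, 17.9 and 41.7 CPM in WTS-R, against 35.5, 50.5 and 32.7 CPM in NS-R. In TS-R, Ccn2 measured 12.2, 19.5, 9.65 and 25.8 CPM, and in NTS-R 35.9, 35.7 and 48.3 CPM. All NTS-R libraries were above all TS-R libraries, and the log2 fold change was 1.25, or 2.38 times (SE 0.368, unadjusted p = 0.00491, edgeR adjusted p = 0.110). Without TS-R replicate 4, the highest of its group, the change was 1.53 and was called (edgeR adjusted p = 0.0453; 5.15% of all genes called), and without TS-R replicate 3, the lowest, it was 1.09 (adjusted p = 0.223). TS-R and WTS-R overlapped, with a difference of -0.62 (95% interval from -1.42 to 0.176). NTS-R and NS-R had means of 40.0 ± 7.17 and 39.6 ± 9.58 CPM (SD, n = 3 each).

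Ccn2 varied with cardiac muscle genes. The summed level of 5 cardiac markers was 163 to 923 CPM in TS-R and 773 to 2113 CPM in NTS-R, with 0 of the 5 at 0 in either group. Over the 13 libraries, Ccn2 had r of 0.812 and rho of 0.703 with the mean log2 level of the cardiac markers, and r of 0.68 without TS-R replicate 3 and NTS-R replicate 3. Cardiac muscle RNA moved with the Ccn2 difference between NTS-R and TS-R, and its part in it was not tested.

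Ccn1 and Ccn2 thus ordered the groups differently, and their ratio, chosen after their values were seen, is given as a description. Exact permutation tests of the ratio gave a Benjamini-Hochberg adjusted p of 0.1 in each of 5 comparisons. As the ratio was chosen on its values, these tests carry no weight. On CPM per kb, Ccn1 exceeded Ccn2 by a factor of 3.17 to 4.72 in WTS-R, 6.16 to 9.82 in NS-R and 4.76 to 16.5 in TS-R, but 1.80 to 2.23 in NTS-R. NTS-R thus had the lowest ratios and did not overlap any other group. The mean log2 ratio differed by -2.17 between NTS-R and TS-R, by 1.29 between TS-R and WTS-R, by 1.15 between NS-R and WTS-R, by -2.03 between NTS-R and NS-R and by -0.88 between NTS-R and WTS-R.

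**Figure D3:**
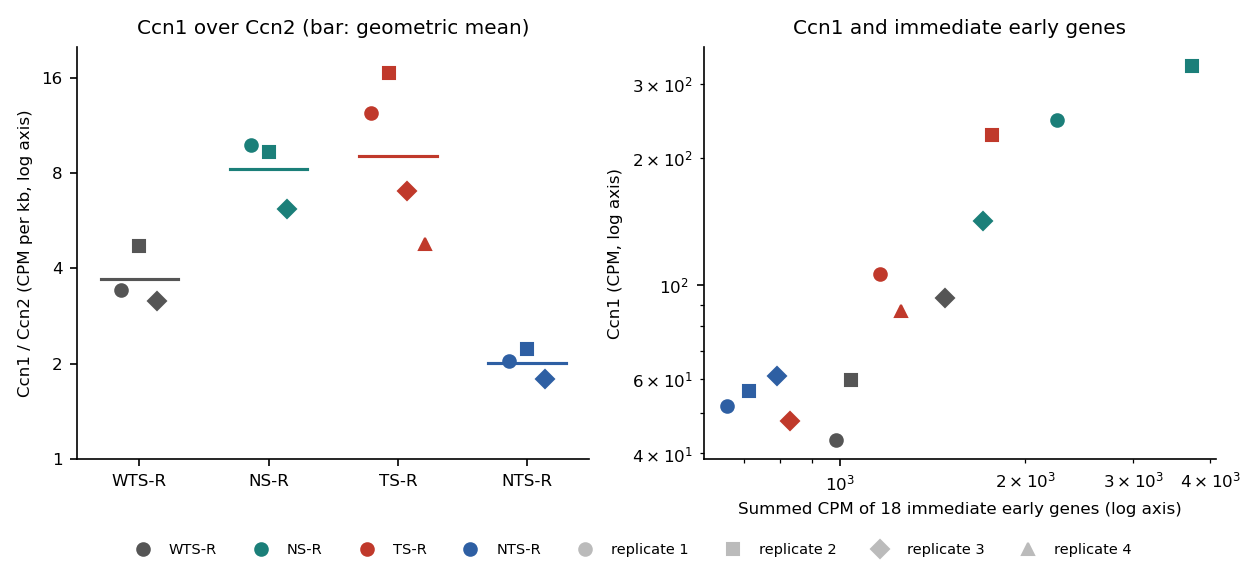
Left, ratio of Ccn1 to Ccn2 on CPM per kb in each library (log axis) with the geometric mean of each group as a bar. Right, Ccn1 in CPM against the summed CPM of 18 immediate early genes in the 13 libraries (both axes log), with the NTS-R libraries at the lower left and NS-R replicates 1 and 2 at the upper right.

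Tgfb1 encodes the growth factor of the set, made by macrophages, lymphocytes and many other cells. Tgfb1 measured 22.0, 26.5 and 33.5 CPM in WTS-R, against 18.3, 24.1 and 30.9 CPM in NS-R. In TS-R, Tgfb1 measured 23.6, 34.4, 71.5 and 33.1 CPM, and in NTS-R 21.3, 25.5 and 26.5 CPM. TS-R replicate 3 stood far above the other 12 libraries, which lay between 18.3 and 34.4 CPM. The log2 fold change in TS-R against WTS-R was 0.58 (SE 0.330, edgeR adjusted p = 0.321), and 0.14 without TS-R replicate 3. In NTS-R against TS-R it was -0.74 (SE 0.332, unadjusted p = 0.0452, edgeR adjusted p = 0.244), and -0.29 without that library. TS-R replicate 3 is the library with 1534 CPM of lymphocyte markers. Over the 13 libraries Tgfb1 had r of 0.813 and rho of 0.396 with the lymphocyte level, and r of 0.357 without TS-R replicates 2 and 3, so the relation rests on those libraries. With the fibroblast marker level, Tgfb1 had r of -0.855 and rho of -0.621, and r of -0.862 without WTS-R replicate 3 and TS-R replicate 3.

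The fibroblast marker level moved with several of these values. The mean log2 level of the 10 fibroblast markers was 6.74 to 7.33 in WTS-R and 5.42 to 6.87 in TS-R. Between TS-R and WTS-R, 10 of the 10 markers had a negative fitted log2 fold change (47.6% of all genes). Their median was -0.55 (0.03 over all genes), and 4 were lower at an unadjusted p under 0.05 (7.07% of all genes). Set over that level in the same library, Postn was 0.23 to 0.90 log2 units above it in WTS-R and -0.27 to 0.99 in TS-R, so that the groups overlapped. Sparc stayed apart, at 3.45 to 3.998 in WTS-R and 2.82 to 3.34 in TS-R. Eln was at -0.56 to -0.42 in WTS-R and at -1.24, -1.05, -0.33 and -1.59 in TS-R, where replicate 3 alone lay above WTS-R. Ccn1 was at -1.63 to -0.78 in WTS-R and 0.37 to 1.15 in NS-R, without overlap. These differences were not tested.

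Lymphocyte and lymph node stroma markers moved the opposite way to Postn and Sparc. Over the 13 libraries, Postn had r of -0.749 and rho of -0.582 with the lymphocyte level and r of -0.729 and rho of -0.753 with the lymph node stroma level. For Sparc these were r of -0.891 and rho of -0.604, and r of -0.889 and rho of -0.637. For Eln they were r of -0.527 and rho of -0.456, and r of -0.498 and rho of -0.484. Without TS-R replicates 2 and 3, r lay at -0.515 and -0.462 for Postn, -0.59 and -0.54 for Sparc and -0.429 and -0.384 for Eln. TS-R replicate 1, with lymphocyte and lymph node markers at 22.6 and 19.7 CPM, within the range of the NS-R and NTS-R libraries, was below all of WTS-R in Postn (96.4 CPM), Sparc (1182 CPM) and Eln (49.1 CPM). TS-R replicate 1 also had the highest sum of skeletal muscle markers of the 13 libraries, 10283 CPM. The part of lymph node or skeletal muscle RNA in the differences between TS-R and WTS-R was not tested.

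**Figure D4:**
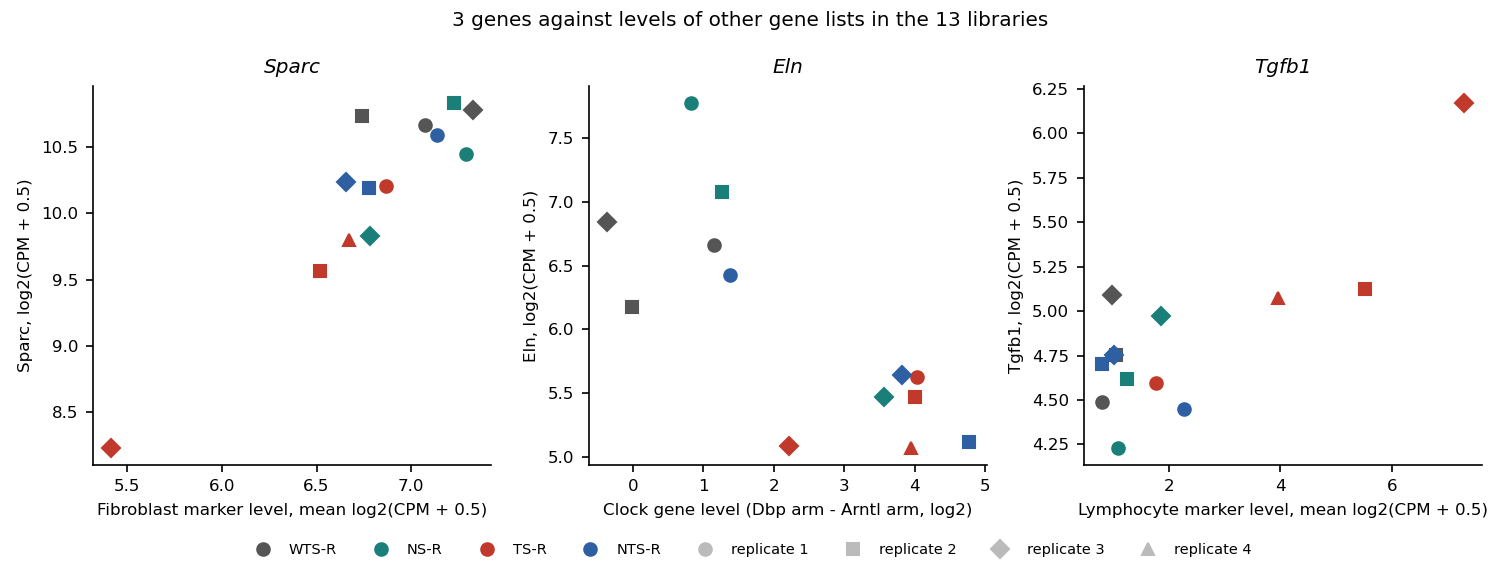
Sparc against the fibroblast marker level, Eln against the clock gene level and Tgfb1 against the lymphocyte marker level in the 13 libraries, all on log2 scales. TS-R replicate 3 lies apart in the Sparc and Tgfb1 panels, and the libraries with a low clock level hold the higher Eln values in the Eln panel.

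Relations among the 10 genes were described over the 13 libraries, which share depth and tissue composition. Sparc and Postn had the highest Pearson r of any pair, 0.77, and Sparc and Tgfb1 the lowest, -0.845. Outside the set, among 11426 genes with a mean of at least 5 CPM, the pattern of Sparc was most like that of Sgcd, a sarcoglycan (r = 0.988, rho = 0.956, and r = 0.961 without the 2 most distant libraries). Postn was most like Adamts12, a secreted protease (r = 0.956, rho = 0.874), followed by Loxl2, a lysyl oxidase, and Aspn, the small proteoglycan asporin. Eln was most like Ptgfrn (r = 0.937), followed by the collagen I chains Col1a2 (r = 0.934) and Col1a1 (r = 0.932). The 3 genes most like Ccn1 were Junb (r = 0.914), Jun (r = 0.914) and Egr1 (r = 0.894), and those most like Ccn2 were Sln (sarcolipin, r = 0.915), Mybphl (r = 0.899) and Fhl2 (r = 0.893), which are expressed in heart muscle. Tgfb1 was most like Rab8b (r = 0.96) and Cd83 (r = 0.94), Thbs1 most like Gm13341 (r = 0.912), Thbs2 like Bicc1 (r = 0.898), Tnc like Ipmk (r = 0.892) and Fn1 like Isg20 (r = 0.877).

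Among the other genes of TGF-beta signalling, of 22 ligands, latency proteins, receptors and SMADs, 1 was higher (15.2% of all genes) and 3 were lower (7.07% of all genes) at an unadjusted p under 0.05 in TS-R against WTS-R, 18 of 22 had negative log2 fold changes, and the median was -0.20. Tgfb3, a second ligand, was lower by 0.58 (SE 0.229, edgeR adjusted p = 0.165), and Smad3, a transducer of the signal, had a log2 fold change of -0.71 (SE 0.306, adjusted p = 0.193). Nrros, which anchors latent TGF-beta on myeloid cells, was higher by 0.92 (SE 0.361, adjusted p = 0.160), with 64.9 CPM in TS-R replicate 3 against 18.3 to 32.2 CPM in the other TS-R libraries. Of 12 genes known to be induced by TGF-beta, 2 were higher (15.2% of all genes) and 2 lower (7.07% of all genes) in the same comparison, with a median of 0.19. Bhlhe40, also an immediate response gene and a clock component, had a log2 fold change of 1.37 (SE 0.342, adjusted p = 0.0624), and Pmepa1, a feedback inhibitor of the pathway, -1.19 (SE 0.393, adjusted p = 0.103).

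Elastic fibre genes shared the direction of Eln. Of 14 tested genes for fibrillins, fibulins, microfibril proteins and crosslinking enzymes, 9 were lower between TS-R and WTS-R at an unadjusted p under 0.05 (7.07% of all genes), 9 were lower without overlap (8.17% of all genes), 12 of 14 were negative, and the median was -0.996. Mfap4, a microfibril protein of elastic fibres, measured 30.9, 13.95 and 31.5 CPM in WTS-R, but 3.605, 7.60, 2.67 and 5.30 CPM in TS-R. All TS-R libraries of Mfap4 were thus below all of WTS-R, and the log2 fold change was -2.42 (SE 0.556, edgeR adjusted p = 0.0624). The crosslinking enzymes Lox (log2 fold change of -1.23, SE 0.309, adjusted p = 0.0625) and Loxl1 (-1.42, SE 0.376, adjusted p = 0.0675) were also lower without overlap. In NTS-R against TS-R, 12 of the 14 were positive with a median of 0.50, and 4 were higher at an unadjusted p under 0.05 (5.59% of all genes). In NTS-R against WTS-R, 14 of 14 were negative with a median of -0.51 and 0 had an unadjusted p under 0.05 (2.65% of all genes).

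The relatives of the 10 genes were mixed. Of 15 tested members of the CCN, thrombospondin, tenascin and SPARC families, 3 were higher (15.2% of all genes) and 4 lower (7.07% of all genes) between TS-R and WTS-R at an unadjusted p under 0.05, so that the share higher was near that of all genes. Ccn5, a CCN protein that lacks the last domain of its relatives, had a log2 fold change of -1.31 (SE 0.387, edgeR adjusted p = 0.0805), and Fstl1, a relative of SPARC, -0.79 (SE 0.268, adjusted p = 0.112). Spock3, a proteoglycan of the SPARC family, was at 0.377 to 0.707 CPM in WTS-R and at 1.03 to 5.28 CPM in TS-R, a log2 fold change of 2.37 (SE 0.552, adjusted p = 0.0624), and at 0.231 to 0.457 CPM in NTS-R. Among 17 receptors of the proteins, Sdc4, a syndecan that binds fibronectin, was lower by 1.31 (SE 0.292, adjusted p = 0.0624), and Itgb3, an integrin chain, was higher by 1.20 (SE 0.431, adjusted p = 0.129), with 27.8 CPM in TS-R replicate 3 against 7.31 to 10.1 CPM in the other 3.

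For the Hippo pathway, Wwtr1, which encodes TAZ, had a log2 fold change of -0.73 in TS-R against WTS-R (SE 0.267, edgeR adjusted p = 0.133). Stk4, another core gene of the pathway, went the other way, at 1.48 (SE 0.495, adjusted p = 0.107), and its groups overlapped. Wwtr1 and Stk4 were the only core genes, among 15 tested, that reached an unadjusted p under 0.05. They made 1 lower (7.07% of all genes) and 1 higher (15.2% of all genes), so neither count stood above the share of all genes. Negative values were seen for 10 of the 15 (47.6% of all genes), and the median of the 15 was -0.25 (0.03 over all genes). Of 16 tested targets of YAP and TAZ other than Ccn1 and Ccn2, 1 was higher (15.2% of all genes) and 0 were lower (7.07% of all genes) at an unadjusted p under 0.05 in that comparison, and the median was -0.01. In NTS-R against TS-R, Ankrd1, a target that heart muscle also expresses, was higher by 1.43 (SE 0.434, adjusted p = 0.114), at 57.1 to 163 CPM against 14.3 to 49.8 CPM. Ankrd1 thus had the same direction as Ccn2 in that comparison, while 9 of the 16 had negative values.

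The immediate early genes had their largest median differences in the comparisons with NS-R, where Ccn1 also had its largest log2 fold changes. Of 17 tested, 12 were higher in NS-R than in WTS-R at an unadjusted p under 0.05 (4.92% of all genes), 17 of 17 were positive, and the median was 1.35. In NTS-R against NS-R, 14 were lower (5.11% of all genes), 17 of 17 were negative and the median was -2.05. Between NTS-R and TS-R, 8 were lower (14.1% of all genes) and the median was -0.78. In TS-R against WTS-R 3 were higher, near the 15.2% of all genes, and the median was 0.41. In NTS-R against WTS-R, 5 were lower at an unadjusted p under 0.05 (2.65% of all genes in either direction). There, 15 of 17 were negative, the median was -0.54, and 7 were lower without overlap (7.46% of all genes). Ccn1 itself had a log2 fold change of -0.21 (SE 0.484) in that comparison, with overlap. Egr3 had the smallest p of all genes in NTS-R against TS-R, at 0.809 to 2.36 CPM against 10.3 to 35.4 CPM, a log2 fold change of -3.57 (SE 0.562, edgeR adjusted p = 0.105). Egr2 was at 0.686 to 1.61 CPM in NTS-R against 3.78 to 11.6 CPM in TS-R (-2.93, SE 0.530, adjusted p = 0.105).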

How the data were processed

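Messenger RNA of perivascular adipose tissue was sequenced with paired-end reads after TRIzol extraction, per the labels' protocols. HISAT2 and featureCounts are named in the submitters' processing notes, without versions. No source used here names the genome build, annotation or strandedness, so reads of overlapping genes may not be separated. The authors deposited whole-number read counts per gene, without normalization, for 34013 gene IDs, of which 33302 matched a symbol.

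All 13 libraries were fitted together with edgeR 4.0.16 in R 4.3.3 (TMM, filterByExpr, glmQLFit and glmQLFTest, group means, no covariate). Benjamini-Hochberg adjustment ran over the 17270 genes tested, with a threshold of 0.05, and every adjusted p in the text is from this test unless another tool is named. A standard error is the log2 fold change divided by the square root of F. CPM per kb divides by the union exon length in GENCODE M21, which may differ from the authors' annotation. Log2 levels are log2(CPM + 0.5). A count of 3, the limit that a count of 0 allows, is 0.0778 to 0.242 CPM in these libraries, and covers counting error only. No pair of libraries within a group agreed within sampling noise (lowest chi-square per degree of freedom, 32.4).

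The 10 genes and all lists were chosen with earlier results of these data known. Besides the 10, the text names, by rule, up to 3 genes per list with the smallest unadjusted p in TS-R against WTS-R and up to 2 in NTS-R against TS-R, and the 3 genes most like each of the 10, and gives a selection of these. The alternatives were DESeq2 1.42.0, limma 3.58.1 (voom with quality weights), other size factors, no filter on low counts, only the groups compared, a replicate block, a clock covariate and leaving out libraries. The tests were tried on simulated data first. Between libraries of different groups with the same replicate number, deviations from the group means had correlations of -0.371 to 0.374 over 18 pairs. Pairs with unlike numbers were not set beside them, so this cannot show whether the numbers pair the samples.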

Additional observations from a re-analysis of the deposited data

Results flagged for a closer look

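Postn and Ccn1 were singled out because the effect of donor diabetes differed between wild-type and Nlrp3 KO donors at an unadjusted p under 0.05 in edgeR's test of the difference itself, as it did for 18.3% of all genes. For Postn, the difference of effects was 0.69 on the log2 scale (SE 0.287, unadjusted p = 0.0319, edgeR adjusted p = 0.229). It combined -0.84 between TS-R and WTS-R with -0.15 between NTS-R and NS-R. For Ccn1, it was -2.95 (SE 0.681, unadjusted p = 0.000896, edgeR adjusted p = 0.125), from 0.84 between TS-R and WTS-R and -2.10 between NTS-R and NS-R. Neither passed the adjusted threshold in edgeR. DESeq2 and limma both called the Ccn1 difference, among 6.29% and 10.8% of all genes. The TS-R level of each of the 10 genes, in the 1 group large enough to be checked for a library far from the others, gave 0 such libraries in 10 checks. With 4 libraries only very wide gaps pass this check, and Tgfb1 in TS-R replicate 3, at 71.5 CPM against 23.6 to 34.4 CPM in the other TS-R libraries, did not.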

How the results depend on the processing

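With edgeR on all libraries, 0 of the 10 genes were called in any of the 6 tests. Shares in parentheses are of all genes called in the same fit. DESeq2 called 2 between TS-R and WTS-R (11.0%), 2 between NTS-R and TS-R (8.27%), and Ccn1 as 1 call each between NS-R and WTS-R (1.1%), between NTS-R and NS-R (1.22%) and in the difference of effects (6.29%). Limma called 4 between TS-R and WTS-R (22.1%), 3 between NTS-R and TS-R (9.48%) and, in the difference of effects, 2 (Sparc and Ccn1, 10.8%). Without a filter on low counts, 1 (Ccn1) was called in NTS-R against NS-R (0.37%) and 1 (Ccn1) in the difference of effects (0.27%). Without TS-R replicate 3 and NS-R replicate 3, the calls were 1 (Ccn1) in NS-R against WTS-R (3.79%), 2 (Ccn1 and Eln) in NTS-R against NS-R (4.26%) and 1 (Ccn1) in the difference of effects (2.26%). That fit kept only the airway-marker libraries of NS-R. Without TS-R replicates 1 and 3, the difference of effects had 1 call (Ccn1, 0.851%). Leaving out single libraries gave 0 to 2 calls between TS-R and WTS-R (11.2% for TS-R replicate 1, 7.24% for TS-R replicate 4) and 0 to 1 in NTS-R against TS-R (5.15% without TS-R replicate 4). It gave 0 to 1 in NS-R against WTS-R and 0 to 2 in NTS-R against NS-R (2.77% and 3.1% without NS-R replicate 3), and 0 to 1 in the difference of effects (1.64% for NS-R replicate 3, 3.03% for TS-R replicate 1). NTS-R against WTS-R had 0 calls under all 22 alternatives run. The replicate block gave 0 calls of the 10 in all 6 tests, although over all genes it called 619 higher and 165 lower between TS-R and WTS-R, 11 and 65 between NTS-R and TS-R and 2 and 17 in the difference of effects. The labels do not say whether a shared replicate number stands for a pairing or a batch.

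Of the 60 values (10 genes in 6 tests), 35 kept their sign under all alternatives run, and 25 changed it under at least 1. In 5 of the 25 the reported value was over 1 SE from 0. Thbs1 in TS-R against WTS-R was 0.10 without TS-R replicates 1 and 3. With the clock level as a covariate, Eln was 0.016 between TS-R and WTS-R and 0.27 between NTS-R and WTS-R. Tgfb1 in the difference of effects ran from -0.797 (without TS-R replicate 1) to 0.0201 (without TS-R replicate 3 and NS-R replicate 3). Eln in NS-R against WTS-R ran from -0.0682 (without NS-R replicate 1) to 0.91 over the alternatives. The cause was not tested. The fit of only the groups compared was not run for the difference of effects, which needs all 4. The lowest count of the 10 genes in any library was 105, and the common biological coefficient of variation over all genes was 0.389.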

Other observations

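Several genes near the 10 were at or close to 0 in most libraries. Spock1, a proteoglycan of the SPARC family, was at 1.96, 1.40, 1.18 and 0.0609 CPM in the TS-R libraries and had 0 counts in all 3 NTS-R libraries, where the limit that a count of 0 allows is 0.173 to 0.242 CPM per library. WTS-R held 0, 0 and 0.257 CPM of Spock1, and NS-R 0.363, 0 and 0.408 CPM. Fbn2, a fibrillin of developing tissue, reached 8.35 CPM in TS-R replicate 3, and the other 12 libraries held 0 to 0.691 CPM. Acta2, 1 of the 7 smooth muscle markers, was at 75.2 to 162 CPM in WTS-R and 164 to 309 CPM in NS-R, a log2 fold change of 1.17 (SE 0.363, edgeR adjusted p = 0.447). It was at 41.8 to 96.0 CPM in TS-R and 113 to 138 CPM in NTS-R, a difference of 0.82 (SE 0.333, edgeR adjusted p = 0.200).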
